A study of Mus musculus with 12 samples.

Results

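The 33 genes described here encode acute-phase and secreted plasma proteins and were chosen by symbol. They comprise 26 positive acute-phase genes (Saa1, Saa2, Saa3, Saa4, Orm1, Orm2, Orm3, Hp, Hpx, Apcs, Crp, Fga, Fgb, Fgg, Itih2, Itih3, Itih4, Ambp, Cp, Lbp, Steap4, Mt1, Mt2, Cd14, Fgl1 and Lrg1) and 7 negative acute-phase genes or carriers (Alb, Ttr, Rbp4, Apoa1, Apoa2, Trf and Ahsg), out of 52636 genes in the count table. All 33 symbols were found. The libraries hold total RNA of dissociated tissue, liver or tumor, taken from FVB/NJ females. Every mouse, controls included, carried an orthotopic Fo5 tumor, grown from a section of an MMTV-HER2-transgenic Founder #5 tumor placed in the mammary fat pad; the MMTV promoter directs the HER2 transgene mainly to mammary epithelium. Each tissue was sampled after vehicle and after the antibody, which gives 4 groups of 3 libraries from 3 mice per treatment. TDB denotes the T-cell-dependent bispecific antibody anti-HER2(4D5-2C11)/CD3, which binds HER2 with one arm and the CD3 complex of T cells with the other. It was given once intravenously at 5 mg/kg, the vehicle mice received the same volume of histidine acetate and sucrose buffer, and organs were taken 24 h later. The comparisons ask how the antibody altered these transcripts in the organ that makes most plasma proteins and in the tumor that carries the target antigen.

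The acute phase is the shift in plasma protein synthesis by hepatocytes during inflammation or injury. Interleukin-6 acting through STAT3, together with interleukin-1 and tumor necrosis factor acting through NF-kB and with C/EBP factors, raises transcription of the positive genes, while transcripts of negative ones such as albumin and transthyretin fall. Several members, among them Saa3, Lbp, Cd14, Lrg1 and the metallothioneins, are also made by macrophages, epithelia or other cells outside the liver.

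The promoters of 3 serum amyloid A genes and of Steap4 are shown because the liver and tumor results turn on these members. Saa1, Saa2, Saa3 and Saa4 are neighbours on chromosome 7. The windows run from 250 bases before to 50 bases after the annotated start and are taken from RefSeq on GRCm38.p6. Capitals mark matches, on either strand, to a C/EBP half-site pair (TTGCNNAA), and in Steap4 also to a STAT site (TTCNNNGAA) and an NF-kB site.
Saa1, minus strand, chr7:46742931-46743230: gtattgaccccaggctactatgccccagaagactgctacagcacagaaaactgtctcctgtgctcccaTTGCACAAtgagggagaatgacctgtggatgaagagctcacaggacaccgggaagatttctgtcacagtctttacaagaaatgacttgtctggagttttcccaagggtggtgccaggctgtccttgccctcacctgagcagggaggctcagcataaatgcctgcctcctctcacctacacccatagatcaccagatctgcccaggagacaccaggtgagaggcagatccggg
Saa2, plus strand, chr7:46751583-46751882: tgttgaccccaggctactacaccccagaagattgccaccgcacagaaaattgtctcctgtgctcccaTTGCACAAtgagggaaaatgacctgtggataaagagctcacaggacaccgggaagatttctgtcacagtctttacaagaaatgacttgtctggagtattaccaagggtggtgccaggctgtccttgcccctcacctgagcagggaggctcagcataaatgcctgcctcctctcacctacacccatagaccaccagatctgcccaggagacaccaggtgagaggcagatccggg
Saa3, minus strand, chr7:46715627-46715926: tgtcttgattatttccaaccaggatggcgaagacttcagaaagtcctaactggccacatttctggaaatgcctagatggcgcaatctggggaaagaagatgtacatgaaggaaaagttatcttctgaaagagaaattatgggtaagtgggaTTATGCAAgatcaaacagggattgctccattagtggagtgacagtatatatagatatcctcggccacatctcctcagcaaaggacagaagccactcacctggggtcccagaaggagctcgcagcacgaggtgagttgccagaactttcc
Steap4, plus strand, chr5:7960222-7960521: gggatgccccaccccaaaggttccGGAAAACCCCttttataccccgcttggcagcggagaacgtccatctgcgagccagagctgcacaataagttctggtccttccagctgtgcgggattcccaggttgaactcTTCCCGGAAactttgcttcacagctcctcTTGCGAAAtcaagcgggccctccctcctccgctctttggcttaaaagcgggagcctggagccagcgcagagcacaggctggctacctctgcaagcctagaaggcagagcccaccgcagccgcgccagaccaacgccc
The Saa1 and Saa2 windows were 95.3% identical in a global alignment and held the same C/EBP match, TTGCACAA, from base -182 to -175 in Saa1 and from base -183 to -176 in Saa2. The Saa3 window was 50.1% identical to that of Saa1 and held its C/EBP match, TTATGCAA, nearer the start, at bases -99 to -92. Steap4 was the member with all 3 kinds of match: GGAAAACCCC at bases -226 to -217 for NF-kB, TTCCCGGAA at -116 to -108 for STAT and TTGCGAAA at -87 to -80 for C/EBP. RefSeq windows were at hand for 26 members. The C/EBP letters were found in 17 of these 26, against 10.8% of 32817 promoter windows of the same length. The 17 were 13 of the 21 positive members with a window and the negative members Ahsg, Alb, Apoa2 and Rbp4. Members with several windows (Apoa2, Cp and Rbp4) counted if any of them matched, while the background counts each window. The STAT letters were found in 5 (Apcs, Fga, Fgb, Itih4 and Steap4), against 8.29% of all windows, and the NF-kB letters in Steap4 alone, against 1.63%. The core of the metal response element, TGCNCNC, was present in Mt1 and Mt2 and in 17 members in all, against 51.0% of windows, and the HNF1 site in 0 members, against 0.0609%. A match is a run of letters and does not show binding.

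Levels are given as CPM, counts scaled to the library total, in the order of replicates 1 to 3; genes are compared with each other only per exonic length (TPM). Depth ranged from 18460159 to 25542980 counts in the livers and from 20796764 to 29396324 in the tumors. The members took 20.2% to 25.3% of the counts in liver and 0.665% to 0.831% in tumor. Tissue markers followed the labels: 18 hepatocyte enzymes and transporters summed to 20780 to 27906 CPM in vehicle livers and 138 to 147 CPM in vehicle tumors, and 12 mammary epithelial markers to 371 to 488 CPM and 23146 to 26624 CPM. In liver 2 libraries stood apart. Liver vehicle 2 had Saa1 and Saa2 levels above those of every antibody-treated liver, and liver TDB 3 deviated from the other TDB livers with transcript length (Spearman's rho 0.637 across 13649 genes and 0.685 across the 33 members, a description, since genes are not replicates) and had the highest mitochondrial share, 2.05% against 0.847% to 1.28% elsewhere in liver. Erythroid markers were also highest in liver vehicle 2, at 2296 CPM over 7 genes against 522 and 810 CPM in the other vehicle livers and 321 to 913 CPM in TDB livers (5 of 5 tested below 0, median -1.04, 0 called); their part in the members' values was not tested. Results in liver are therefore given with and without these libraries, which were picked with earlier results of these data known.

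In liver, the positive members leaned upwards and the negative ones downwards 24 h after the antibody, but no member passed the test. With edgeR and a Benjamini-Hochberg adjusted p under 0.05 as the threshold, 0 of the 33 were called, against 0.535% of 13657 genes tested (0.513% higher and 0.022% lower). Of the 26 positive members, 21 had a log2 fold change above 0, with a median of 0.57; all 7 negative members were below 0, with a median of -0.57; the median over all genes tested was 0.04. At an unadjusted p under 0.05 there were 10 positive members on the higher side (background 5.84%) and 2 negative ones on the lower side (background 2.25%). The 3 TDB livers lay entirely above the 3 vehicle livers for 8 positive members (background 11.9%), namely Saa3, Saa4, Fga, Fgb, Fgg, Lbp, Steap4 and Mt2, and entirely below them for 4 negative members (background 3.67%), namely Alb, Ttr, Apoa1 and Ahsg. Hepatocyte enzymes and transporters, the 18 markers that hold no plasma protein, were also on the lower side in TDB livers (17 of 18 below 0, median -0.31, 0 called), 12 monocyte and macrophage markers summed to 287 to 309 CPM with vehicle and 341 to 417 CPM with the antibody (0 called), and 9 T cell markers to 11.9 to 13.4 CPM and 25.3 to 35.6 CPM (1 called). Their part in the members' values was not tested. DESeq2 on the same counts called 5 members higher (Steap4, Lbp, Fga, Mt2 and Saa3; background 2.14%) and 0 lower.

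**Figure D1:**
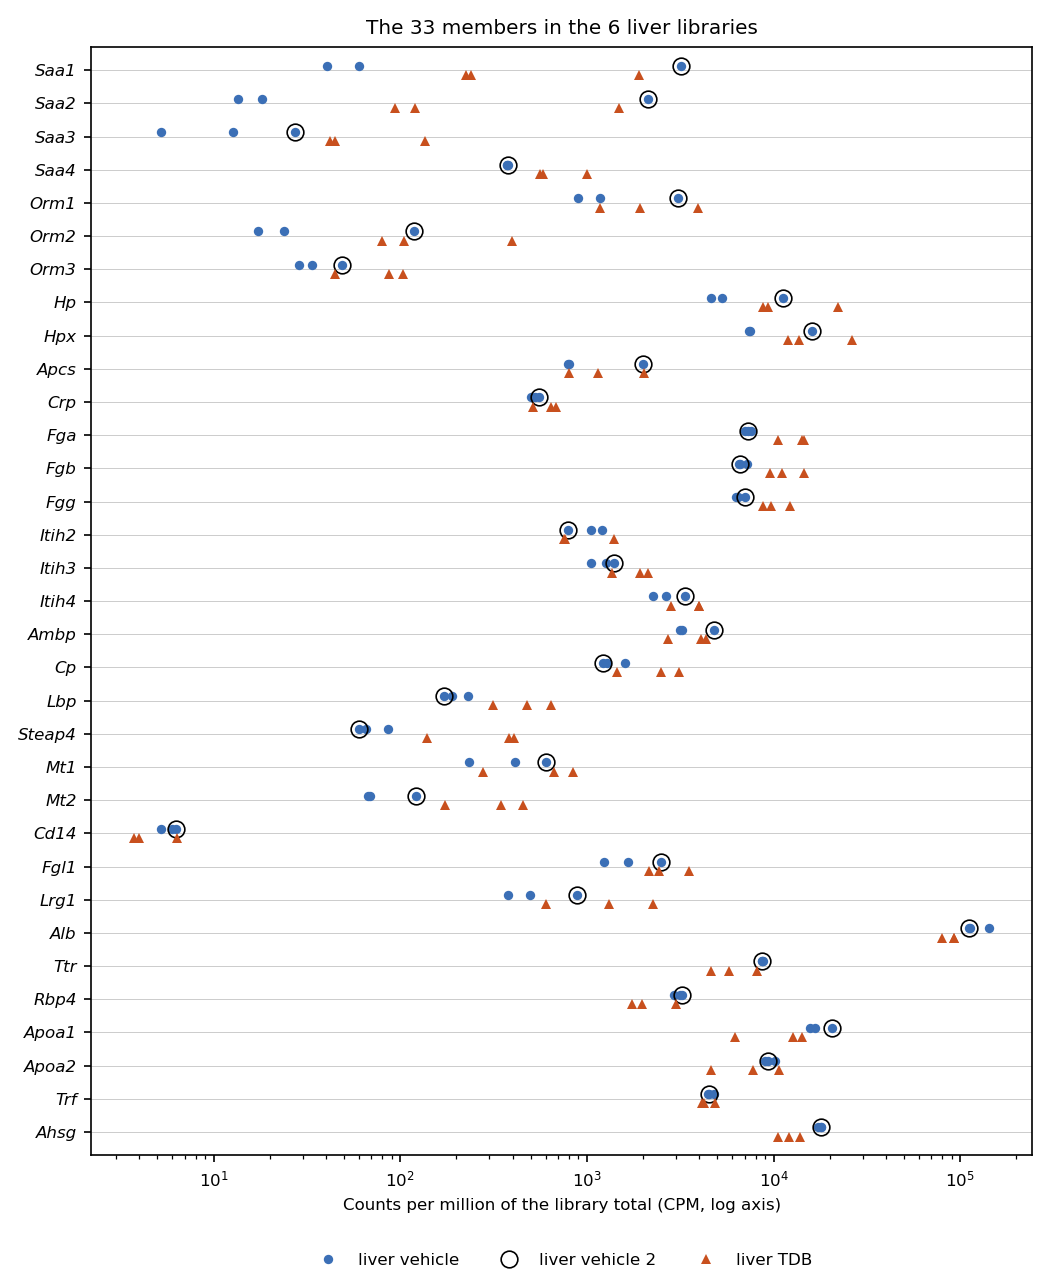
Level of each member in the 6 liver libraries, in CPM on a log axis; circles are vehicle livers, triangles TDB livers, and the ringed circle is liver vehicle 2. The ringed circle lies with or above the TDB livers for Saa1 and Saa2, while for Steap4, Lbp, Mt2 and the 3 fibrinogen genes every triangle lies to the right of every circle.

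The serum amyloid A genes encode small apolipoproteins of high-density lipoprotein; Saa1 and Saa2 are the main inducible forms in liver. Saa1 was measured at 40.5, 3195 and 60.04 CPM in vehicle livers and at 225, 1890.2 and 238 CPM in TDB livers. Saa2 was measured at 13.5, 2128 and 18.1 CPM and at 93.5, 1477 and 120.3 CPM. Vehicle replicate 2 was the highest of the 6 livers for both genes, TDB replicate 2 came next, and the other TDB livers lay above the other vehicle livers. The log2 fold changes were -0.67 (SE 1.59) for Saa1 and -0.54 (SE 1.82) for Saa2, with edgeR adjusted p of 0.92 and 0.944. Without liver vehicle 2 they turned to 3.89 and 5.08, still short of the threshold (adjusted p = 0.475 and 0.473). Saa3, an inducible form also made outside the liver, stood at 12.7, 27.4 and 5.22 CPM in vehicle livers and at 44.8, 135 and 41.9 CPM in TDB livers, with no overlap (log2 fold change 2.15, SE 0.70, adjusted p = 0.393). Saa4, the constitutive form, stood at 375, 376 and 371 CPM and at 562, 1006 and 583 CPM, also without overlap (log2 fold change 0.83, adjusted p = 0.387). Saa4 was level across the vehicle livers, including the one in which Saa1 and Saa2 were high.

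Steap4, Lbp and Mt2 had the smallest p values of the members in liver. Steap4, a membrane reductase of ferric and cupric ions, was at 65.2, 60.4 and 85.7 CPM in vehicle livers and at 139.5, 380.1 and 408 CPM in TDB livers. The groups did not overlap, and the log2 fold change was 2.01 (SE 0.38, adjusted p = 0.0908). It passed the threshold under 6 of 16 alternatives, among them DESeq2, the test without a low-count filter and the fit without liver TDB 1 (2.33, adjusted p = 0.00424). Mt2, a metallothionein that binds zinc and copper, was at 67.2, 121 and 68.5 CPM in vehicle livers and at 346, 457 and 173 CPM in TDB livers (log2 fold change 1.82, SE 0.44, adjusted p = 0.191). Its paralog Mt1 was at 410.3, 601 and 233 CPM and at 663, 846 and 279 CPM, with overlap (log2 fold change 0.42, SE 0.50). Cp, the copper-carrying ferroxidase ceruloplasmin, was at 1277, 1225 and 1608 CPM and at 1446, 2500.0 and 3116 CPM, and its lowest TDB liver lay below its highest vehicle liver (log2 fold change 0.66, adjusted p = 0.588). Without liver TDB 3, Mt2 passed the threshold at 2.16 (adjusted p = 0.0144).

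Mt1 and Mt2 lie in one cluster, and their balance is given apart from their levels. The ratio of Mt1 to Mt2 counts was 6.10, 4.98 and 3.41 in vehicle livers and 1.92, 1.85 and 1.61 in TDB livers. In tumor the ratio was 3.84, 4.99 and 3.74 with vehicle and 2.69, 2.53 and 2.46 with the antibody. Every TDB library had a lower ratio than every vehicle library of its tissue; the exact two-sided permutation test gave p = 0.1 in each tissue, the smallest that 3 against 3 libraries allow. This ratio is free of library scaling, and no 50-base stretch is shared by Mt1 or Mt2 with another annotated gene. Saa1 and Saa2, whose annotated exons share 31.5% and 29.97% of 50-base stretches with other genes, almost all with each other, also differed in balance by tissue. Saa1 counts were 1.28 to 3.32 times those of Saa2 in the 6 livers and 0.677 to 0.799 times in the 6 tumors, while within a tissue the ratio overlapped between treatments. Reads shared by both genes could have been split between them in ways the sources used here do not state. The annotated exons of Saa1, 2478 bases, cover nearly its whole gene. The share of stretches within a single spliced transcript was not computed.

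**Figure D2:**
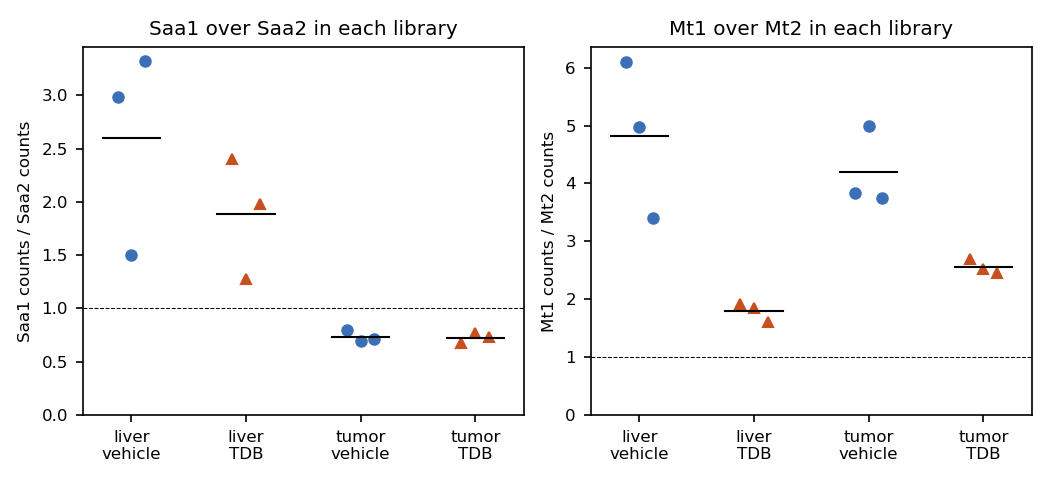
Ratio of Saa1 to Saa2 counts (left) and of Mt1 to Mt2 counts (right) in each library; points are libraries, horizontal bars group means, and the dashed line marks equal counts. Saa1 exceeded Saa2 in each of the 6 livers and stayed under it in each of the 6 tumors, and the Mt1 to Mt2 ratio was lower in every TDB library than in the vehicle libraries of the same tissue.

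Lbp, the plasma protein that hands bacterial lipopolysaccharide to CD14, was at 189, 171 and 231 CPM in vehicle livers and at 314, 639.7 and 478 CPM in TDB livers. The groups did not overlap (log2 fold change 1.16, SE 0.27, adjusted p = 0.18). Cd14 itself, the co-receptor carried by monocytes and macrophages, was low in liver, at 5.25, 6.29 and 6.01 CPM with vehicle and 3.98, 6.34 and 3.75 CPM with the antibody. Its log2 fold change was -0.43 (SE 0.30). Kupffer cell markers, the macrophages of liver, summed to 861 to 982 CPM over 7 genes in vehicle livers and to 849 to 952 CPM in TDB livers; 1 of the 7 was called higher (Marco), 3 lay entirely above and 2 entirely below the vehicle livers.

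The 3 fibrinogen chains, which assemble into one clotting protein, kept close to each other. Fga was at 6985, 7273 and 7583 CPM in vehicle livers and at 10515, 14492 and 14167 CPM in TDB livers. Fgb was at 6560.1, 6596 and 7175 CPM and at 9547, 14463 and 11034 CPM. Fgg was at 6265, 7036 and 6474 CPM and at 8763, 12303 and 9661 CPM. None of the 3 overlapped between groups, and vehicle replicate 2 was not set apart for any of them. The log2 fold changes were 0.73, 0.67 and 0.52, with adjusted p of 0.264, 0.369 and 0.564. The ratio of Fga to Fgb counts stayed within 1.00 to 1.28 over the 6 livers.

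The orosomucoids, the scavengers and the pentraxins were spread more widely, and for most of them liver vehicle 2 was the highest vehicle liver. Orm1, the main alpha-1-acid glycoprotein, was at 1172, 3077 and 891 CPM with vehicle and at 1929, 3933 and 1182 CPM with the antibody (log2 fold change 0.33, SE 0.60). Orm2 was at 17.4, 119 and 23.9 CPM and at 79.3, 395 and 105 CPM (log2 fold change 1.70, SE 0.89). Both overlapped between groups through vehicle replicate 2; Orm1 shares 20.4% of its 50-base stretches with Orm2. Hp, which captures free hemoglobin, was at 4639, 11273 and 5313 CPM and at 9338, 22194 and 8781 CPM, and Hpx, which captures heme, at 7407, 16126 and 7508 CPM and at 13722, 26306 and 12014 CPM. In both, vehicle replicate 2 reached the level of the lower TDB livers and TDB replicate 2 was the highest. Lrg1, a leucine-rich glycoprotein of plasma, was at 377, 882 and 494 CPM and at 1308, 2257 and 605 CPM (log2 fold change 1.14, SE 0.53). Apcs, the pentraxin that responds most in mice, was at 788, 1995 and 801 CPM and at 1149, 2016 and 805 CPM, and Crp, the other pentraxin, was at 502, 554 and 528 CPM and at 515, 680.3 and 643 CPM. The log2 fold changes of the remaining positive members were 0.98 for Orm3, 0.42 for Itih3, 0.26 for Itih4, -0.17 for Itih2, -0.11 for Ambp and 0.47 for Fgl1. Itih2, Itih3 and Itih4 encode heavy chains of the inter-alpha-trypsin inhibitors and Ambp their light chain, and Fgl1 is a fibrinogen-like protein secreted by hepatocytes.

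The negative members were on the lower side in TDB livers, and none of the 7 passed the test. Alb, the most abundant member, was at 112272, 111509 and 142983 CPM in vehicle livers and at 93011, 79609 and 93024 CPM in TDB livers (log2 fold change -0.57, SE 0.20, adjusted p = 0.461). Ahsg, the mineral-binding glycoprotein fetuin-A, was at 17276, 17942 and 18049 CPM and at 13793, 12069.7 and 10617 CPM (log2 fold change -0.65, SE 0.21, adjusted p = 0.403). Apoa1, the main protein of high-density lipoprotein, was at 15728, 20506 and 16653 CPM and at 14123, 12731 and 6214 CPM (log2 fold change -0.77). Ttr, a carrier of thyroid hormone, was at 8736, 8642 and 8720.4 CPM and at 8191, 5752 and 4614 CPM (log2 fold change -0.58). These 4 did not overlap between groups. Rbp4, the retinol carrier, and Apoa2 overlapped, with log2 fold changes of -0.56 and -0.40, and Trf, the iron carrier transferrin, gave -0.16 (SE 0.19). Liver TDB 3, the library that deviated with transcript length, was the lowest TDB liver for 5 of the 7, among them the short transcripts of Apoa1, Apoa2, Ttr and Rbp4; the part of that deviation in these values was not tested. Without liver TDB 3 and liver vehicle 2 the log2 fold changes were -0.61 for Alb, -0.49 for Ahsg, -0.32 for Apoa1 and -0.36 for Ttr, and none of the 7 passed the threshold.

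Liver vehicle 2 was the highest vehicle liver for 20 of the 26 positive members and at least 2-fold above the mean of the other vehicle livers for 9 of them, against 3.08% of all genes tested. Within the antibody group, TDB replicate 2 was the highest for 22 of the 26 and at least 2-fold above the others for 9, against 1.35% of all genes. Neither library was 2-fold apart for any of the 7 negative members. With both liver vehicle 2 and liver TDB 3 left out, which leaves 2 libraries a group, 11 positive members were called higher (Steap4, Lbp, Orm1, Orm3, Hp, Hpx, Mt1, Mt2, Fgl1, Lrg1 and Saa4; background 3.86%) and 0 members lower. In that fit Mt2 had a log2 fold change of 2.51 (adjusted p = 4.95e-05) and Hp of 1.60 (adjusted p = 0.0277), while Saa1 and Saa2, at 4.31 and 5.54, did not pass. Liver TDB 3 was at least 2-fold below the mean of the other TDB livers for 9 of the 26 positive members, against 1236 of 13657 genes tested. It was the lowest TDB liver for 12 of the 26. Among the 11 members called, its ratio to that mean ran from 0.339 for Lrg1 to 1.57 for Steap4. Liver vehicle 2 was known to be high in members of the list when it was left out. Leaving out liver TDB 3 also removed low TDB values of several members called. These counts therefore describe the remaining libraries and are no independent support.

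**Figure D3:**
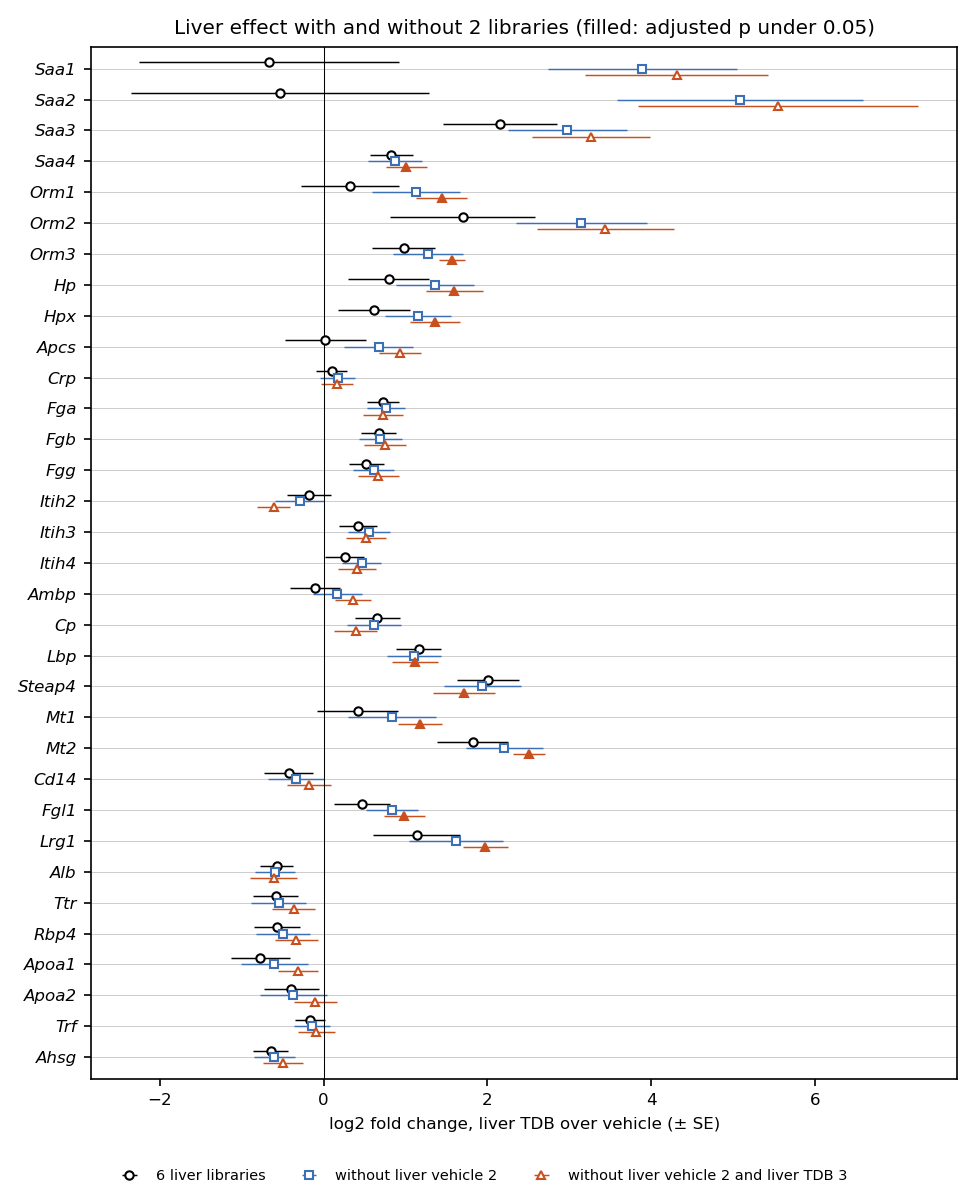
log2 fold change of each member in liver, TDB over vehicle, with its SE, from all 6 libraries (circles), without liver vehicle 2 (squares) and without liver vehicle 2 and liver TDB 3 (triangles); filled symbols have an adjusted p under 0.05. No circle or square is filled, 11 triangles are, and Saa1 and Saa2 move from below 0 to 3.89 and 5.08 when liver vehicle 2 is left out.

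In tumor, 8 positive members rose with the antibody and no member fell. Of the 33, 20 had enough counts to be tested, and the 8 called higher were Saa1, Saa2, Saa3, Orm1, Hp, Cp, Steap4 and Cd14. The background in this comparison was broad, at 28.8% of 15454 genes called (15.8% higher and 13.1% lower), and a member that passed the count filter only through its level in the TDB tumors had to differ, so the count is not set against that share. The 2437 higher and 2019 lower calls became 1856 and 3994 with library totals alone, under which 8 members were called higher and 1 lower, Lbp (-0.46). Of the 20 tested, the TDB tumors lay entirely above the vehicle tumors for 8, the same members, and entirely below for 2, Lbp and Trf; the shares over all genes, 15.6% and 36.9%, are given for reference and nothing is read from them. For Orm1 and Saa3 the vehicle tumors alone would not have met the count filter, so these entered the test through the TDB tumors and their p values are descriptions. In whole tissue, here and in liver, more cells of a type and more RNA per cell cannot be told apart.

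**Figure D4:**
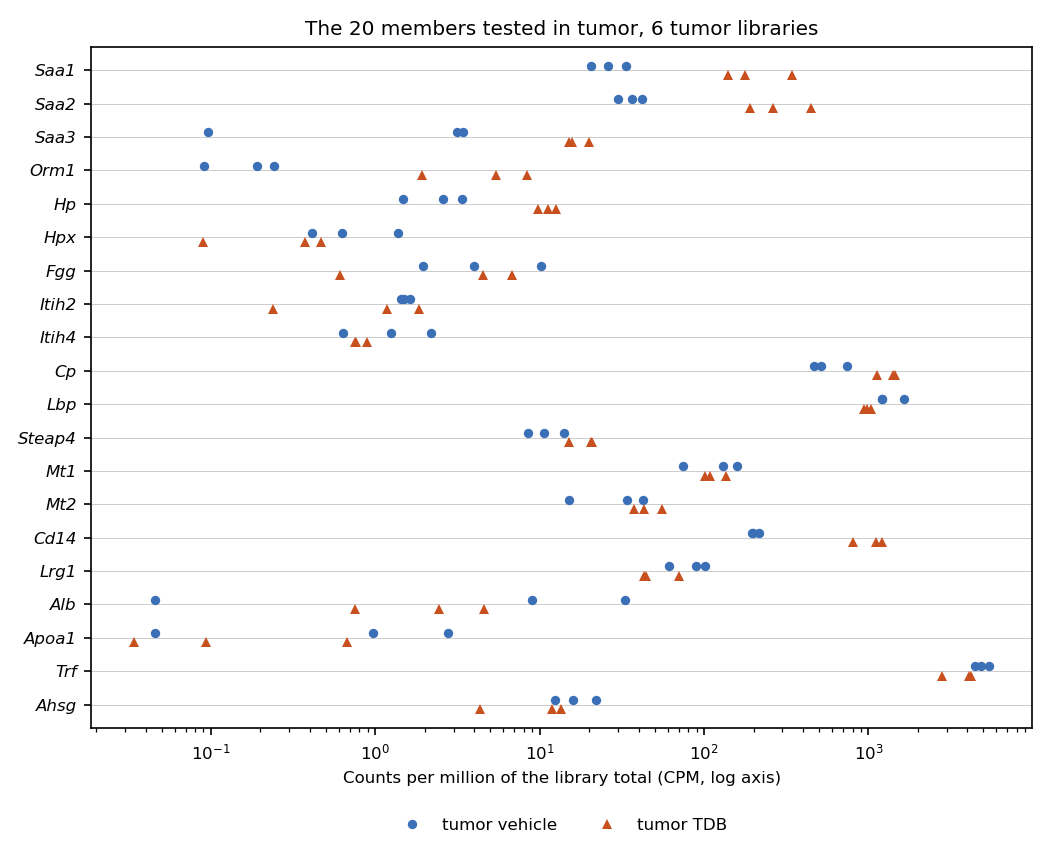
Level of the 20 members tested in tumor, in CPM on a log axis, in the 3 vehicle tumors (circles) and the 3 TDB tumors (triangles). For Saa1, Saa2, Saa3, Orm1, Hp, Cp, Steap4 and Cd14 every triangle lies to the right of every circle, and Alb and Apoa1 scatter over a wide range within the vehicle tumors.

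Saa1 was at 33.5, 20.6 and 25.96 CPM in vehicle tumors and at 179, 341 and 141 CPM in TDB tumors (log2 fold change 3.18, SE 0.42, edgeR adjusted p = 0.00398). Saa2 was at 41.9, 29.8 and 36.3 CPM and at 264, 445 and 191 CPM (log2 fold change 3.19, SE 0.37, adjusted p = 0.00226). The lowest TDB tumor was more than 4 times the highest vehicle tumor for both genes. Saa3 was at 3.13, 0.0954 and 3.42 CPM and at 15.7, 19.8 and 15.1 CPM (log2 fold change 3.05, SE 0.77, adjusted p = 0.0354). Vehicle replicate 2, with 2 counts of Saa3, was far below the other vehicle tumors, and the call was lost when any 1 of tumor vehicle 1, TDB 1, TDB 2 or TDB 3 was left out (adjusted p = 0.075, 0.0857, 0.139 and 0.0927). It was also lost without the count filter (0.0987), and Saa3 passed under 9 of 15 alternatives. Saa4 had 0 counts in 5 of the 6 tumors. With all 12 libraries in one fit, which brings the spread of the livers into the estimate, the calls of Saa1, Saa2 and Steap4 in tumor were lost (adjusted p = 0.234, 0.307 and 0.164).

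Cd14 had the smallest p of the members in tumor. It was at 216, 196 and 199 CPM in vehicle tumors and at 1106, 1207 and 809 CPM in TDB tumors (log2 fold change 2.49, SE 0.15, adjusted p = 8.76e-06). It passed the threshold under 15 of 15 alternatives. Beside it, 12 monocyte and macrophage markers summed to 292 to 403 CPM in vehicle tumors and to 425 to 553 CPM in TDB tumors, and 6 of the 12 rose and 1 fell. Ly6c2, a marker of inflammatory monocytes, went from 0.0481, 0 and 0 CPM to 6.66, 6.12 and 5.30 CPM. The vehicle tumors alone would not have met the count filter for Ly6c2, so it entered the test through the TDB tumors. Csf1r, the receptor of macrophage colony-stimulating factor, went from 41.02, 30.7 and 41.5 CPM to 73.5, 70.04 and 76.3 CPM. Over all genes tested, 15.8% were called higher and 13.1% lower. These shares are given for reference, since markers that entered as Ly6c2 did had to differ. T cell markers moved too (8 of 9 rose). Of 11 epithelial markers tested 2 fell, Erbb2 and Krt8, and 7 lay entirely below the vehicle tumors (36.9% over all genes). Of 7 endothelial markers tested 6 were below 0 and 2 fell (Kdr and Emcn), and of 9 fibroblast markers tested 9 were below 0 with 0 called. Their part in the Cd14 result was not tested.

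Orm1 was at 0.240, 0.191 and 0.0911 CPM in vehicle tumors and at 5.40, 8.33 and 1.92 CPM in TDB tumors (log2 fold change 5.02, SE 0.70, adjusted p = 0.00199), which rests on 11 counts over the vehicle tumors and 406 over the TDB tumors. Orm2, not tested for its low counts, had 1 count over the vehicle tumors and 73 over the TDB tumors, a ratio of 63.8 after depth (95% exact interval 11.1 to 2553, counting error only). Hp was at 2.60, 1.48 and 3.37 CPM and at 11.2, 12.5 and 9.76 CPM (log2 fold change 2.30, SE 0.27, adjusted p = 0.000416). Hp passed under 15 of 15 alternatives. Defining hepatocyte transcripts were near 0 in both groups: Cps1, the first enzyme of the urea cycle, was at 0.240, 1.14 and 0 CPM and at 0.225, 0.102 and 0 CPM, and Pck1, an enzyme of gluconeogenesis, at 0.337, 0.954 and 0 CPM and at 0.0899, 0.0340 and 0 CPM. Of the 18 hepatocyte markers 5 could be tested in tumor and 2 rose, Arg1 and Hal; the list summed to 138 to 147 CPM with vehicle and 190 to 285 CPM with the antibody, of which Arg1, also an enzyme of activated macrophages, made 45.1, 37.2 and 46.7 CPM and 166, 194 and 118 CPM. Of 10 neutrophil markers 6 were tested and 3 rose (Csf3r, S100a8 and Cxcr2). S100a8 was at 5.39, 3.58 and 6.60 CPM and at 28.2, 58.6 and 22.9 CPM. Ly6g had 0 counts in 5 of the 6 tumors and Ngp in all 6. The summed neutrophil list, 488 to 4579 CPM and 2127 to 6336 CPM, consisted almost wholly of Ltf, which mammary epithelium also makes. Its part in the Orm1 and Hp results was not tested.

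Cp was at 738, 514 and 467 CPM in vehicle tumors and at 1414, 1446 and 1135 CPM in TDB tumors (log2 fold change 1.35, SE 0.18, adjusted p = 0.00123). Steap4 was at 10.6, 8.53 and 14.03 CPM and at 20.7, 20.6 and 15.1 CPM (log2 fold change 0.90, SE 0.21, adjusted p = 0.013); it lost the call without tumor vehicle 1 (adjusted p = 0.0614) or tumor TDB 2 (adjusted p = 0.0521). Mt2 was at 33.9, 15.02 and 42.5 CPM and at 37.5, 42.9 and 55.5 CPM (log2 fold change 0.70, adjusted p = 0.254) and Mt1 at 130.3, 74.9 and 159 CPM and at 101, 109 and 136 CPM (log2 fold change 0.05); both overlapped. The epithelial markers summed to 23146 to 26624 CPM in vehicle tumors and to 24345 to 25426 CPM in TDB tumors. The 9 adipocyte markers, listed for the fat pad, summed to 32.2 to 38.9 CPM with vehicle and to 43.6 to 55.9 CPM with the antibody, and 1 of the 3 tested was called higher (Lipe), while Adipoq, Plin1 and Lep had at most 1 count each over the 6 tumors; the part of these cells in the results was not tested.

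Lbp was at 1643, 1215 and 1209 CPM in vehicle tumors and at 980.2, 939 and 1043 CPM in TDB tumors. The groups did not overlap, and the log2 fold change was -0.32 (SE 0.13, adjusted p = 0.0888); upper quartile scaling (-0.40, adjusted p = 0.0423) and DESeq2 (-0.32, adjusted p = 0.0403) put it past the threshold. Lrg1 was at 101, 60.98 and 89.9 CPM and at 42.8, 44.4 and 70.9 CPM (log2 fold change -0.55, adjusted p = 0.19), and DESeq2 gave an adjusted p of 0.0473. Trf was at 4847, 4448 and 5432 CPM and at 4105, 2793 and 4189 CPM (log2 fold change -0.28, adjusted p = 0.243). Of its 50-base stretches 59.4% are shared with other annotated genes, nearly all with Gm20425, which had 0 counts in the 12 libraries.

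The other members that hepatocytes make were at trace levels in tumor and uneven between libraries. Alb had 186, 697 and 1 counts in the vehicle tumors and 102, 72 and 16 in the TDB tumors. Tumor vehicle 2 was the highest vehicle tumor for 5 of the 7 negative members, namely Alb, Ttr, Rbp4, Apoa1 and Apoa2. It was also the highest for 10 of the 26 positive ones, namely Saa4, Hpx, Apcs, Crp, Fga, Fgb, Itih3, Itih4, Ambp and Fgl1. Each of these 10 had a mean of at most 1.36 CPM over the vehicle tumors. Of the positive members, 11 were counted as highest in tumor vehicle 1. These include Saa1, Saa2, Cp, Lbp, Cd14 and Lrg1, which were not at trace levels, and the low Orm1, Orm2, Fgg and Itih2. They also include Orm3, a tie with 0 counts in all 3 vehicle tumors. Another 12 were counted as lowest in tumor vehicle 2, among them Orm2, a tie with 0 counts in tumor vehicle 2 and 3. The 18 hepatocyte markers summed to 147, 139 and 138 CPM in vehicle tumors 1 to 3, although Cps1 and Pck1 were highest in tumor vehicle 2 and at 0 in tumor vehicle 3. Apoa1, Ahsg and Alb had log2 fold changes of -2.14, -0.65 and -2.29 with SE of 1.35, 0.44 and 1.51. Hpx, Fgg, Itih2 and Itih4 had log2 fold changes from -1.21 to -0.33 and did not pass. Fgg stood out from its partner chains, with 341 counts over the vehicle tumors against 41 for Fga and 42 for Fgb. The 13 untested members were Saa4, Orm2, Orm3, Apcs, Crp, Fga, Fgb, Itih3, Ambp, Fgl1, Ttr, Rbp4 and Apoa2, each with at most 74 counts over the 6 tumors.

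The antibody effect itself differed between tissues for 3 members. In the interaction test over 12 libraries, Cd14 (difference of log2 fold changes 2.87, SE 0.33, adjusted p = 0.000698) and Orm1 (4.62, SE 1.09, adjusted p = 0.0487) had the higher effect in tumor, and Lbp (-1.53, SE 0.33, adjusted p = 0.0297) was shifted the other way. The background was 2.49% of 16557 genes (1.83% higher and 0.658% lower). Cd14 was past the threshold under 21 of 21 alternatives, Lbp under 12 of 21 and Orm1 under 11 of 21. With 1 library left out, the Orm1 call was lost for 8 of the 12 libraries (liver vehicle 1 and 2, liver TDB 1, tumor TDB 1 and 2 and each vehicle tumor; adjusted p = 0.071 to 0.133). The Lbp call was also lost for 8 (liver vehicle 1 and 2, liver TDB 2, tumor vehicle 1 and 2 and each TDB tumor; adjusted p = 0.0514 to 0.0948). The direction was the same for Cd14, Orm1 and Lbp in each alternative run. For Saa1 and Saa2 the difference was 3.79 (SE 1.90) and 3.67 (SE 2.15), and without liver vehicle 2 it was -0.75 and -1.93; in neither case did it pass. Steap4 rose in tumor and missed the threshold in liver, and the difference between both effects was -1.14 (SE 0.46, adjusted p = 0.298). Hp, Cp and Saa3, which passed in tumor and not in liver, had differences of 1.45, 0.66 and 0.85 that did not pass either (adjusted p = 0.414, 0.564 and 0.881).

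**Figure D5:**
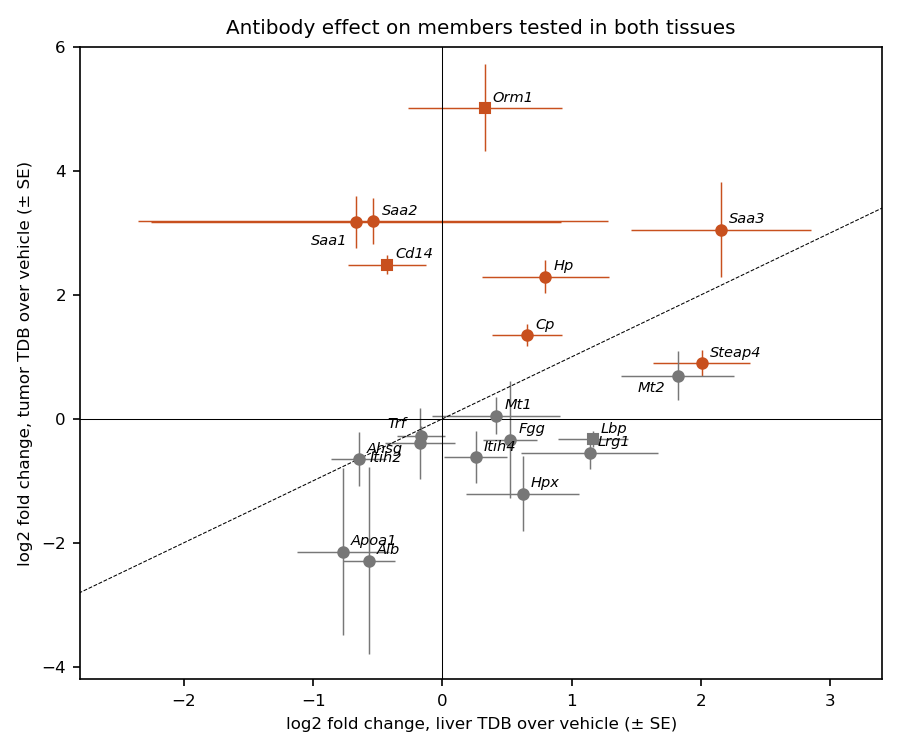
log2 fold change, TDB over vehicle, in tumor (vertical axis) against liver (horizontal axis) with SE bars for the 20 members tested in both; orange symbols passed the test in tumor, squares passed the test of the difference between tissues, and the dashed line marks equal effects. Cd14 and Orm1 lie far above the line and Lbp below it, and the liver error bars of Saa1 and Saa2 span more than 3 log2 units.

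Without the antibody, 31 members were lower in tumor than in liver and 2 were higher, Lbp and Cd14 (background 75.6% of 16557 genes, 36.1% lower and 39.5% higher). Cd14 was at 204 ± 10.7 CPM (SD, n = 3) in vehicle tumors and at 5.85 ± 0.537 CPM in vehicle livers, and Lbp at 1356 ± 249 CPM and 197 ± 30.7 CPM. Trf was at 4909 ± 495 CPM in vehicle tumors and 4601 ± 186 CPM in vehicle livers; its log2 fold change was -1.24 with TMM scaling and 0.0939 with library totals alone (adjusted p = 0.702). The scaling factors were 0.596 to 0.743 in liver and 1.49 to 1.57 in tumor, and the median log2 fold change of all genes in this comparison moved from 0.11 to 1.43 when they were left out, and the split of calls from 6540 higher and 5980 lower to 10862 and 2815. Saa2 in tumor differed from liver by -5.71 (adjusted p = 0.0125) and without liver vehicle 2 by -0.11 (adjusted p = 0.923); Saa1 moved from -6.75 to -2.21 (adjusted p = 0.0302). Per exonic length, Alb led in vehicle livers at 114617 ± 22109 TPM (SD, n = 3), followed by Apoa2 at 38762 ± 2795 TPM and Apoa1 at 31066 ± 3195 TPM, and these last 2 did not overlap between libraries. In vehicle tumors Trf led at 5515 ± 583 TPM, followed by Lbp at 1044 ± 172 TPM, Cd14 at 438 ± 15.3 TPM and Mt1 at 363 ± 128 TPM. In TDB tumors Cd14 was second at 2223 ± 427 TPM. The length used is the union of annotated exons, and these orders hold for that length only. For Mt1 the union, 1246 bases, spans the whole annotated gene.

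Of 32 genes of interleukin-6 and interleukin-1 signalling, 28 were tested in liver and 1 rose, against 0.513% of all genes. This was Socs1, a feedback inhibitor of cytokine receptors (log2 fold change 2.62, adjusted p = 0.043). Socs3, the inhibitor induced by STAT3, was at 10.1, 11.8 and 14.7 CPM in vehicle livers and at 27.6, 36.1 and 43.4 CPM in TDB livers (log2 fold change 1.43, adjusted p = 0.0626). The transcription factor Stat3 gave 0.82 in liver (adjusted p = 0.644). Il6 had 1 count over the vehicle livers and 6 over the TDB livers and was not tested there. In tumor 19 of 26 tested genes rose and 0 fell, with a median log2 fold change of 0.96 against -0.02 over all genes. Over all genes 15.8% were called higher and 13.1% lower. These shares are given for reference, since genes that passed the filter only through the TDB tumors had to differ. Il6 was at 0.0962, 0.0477 and 0.592 CPM in vehicle tumors and at 1.12, 1.94 and 2.02 CPM in TDB tumors (log2 fold change 2.87, adjusted p = 0.0118). The vehicle tumors alone would not have met the count filter for Il6, so its p value is a description. On the log2 scale Il1b rose by 3.01, Tnf by 3.26, Socs3 by 2.54, Jak2 by 1.31 and Stat3 by 0.89. The difference between tissues itself passed for Socs1 (4.37), Tnf (2.52), Il1b (2.33) and Il1rn (2.47).

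Among 57 other plasma protein genes of the hepatocyte, 55 were tested in liver and 0 were called by edgeR; 12 had a log2 fold change above 0 and 43 below, with a median of -0.22. Lcn2, the siderophore-binding lipocalin, was at 33.6, 197 and 48.1 CPM in vehicle livers and at 185, 1371 and 229 CPM in TDB livers, highest in replicate 2 of each group as Saa1 and Saa2 were (log2 fold change 2.53, adjusted p = 0.523). The alpha-1-antitrypsin genes Serpina1a, Serpina1b, Serpina1c, Serpina1d and Serpina1e had log2 fold changes from -0.86 to -0.51, and Hamp, the iron hormone hepcidin, gave 0.20 (SE 0.40). In tumor 3 of 20 tested rose, a share near the 15.8% of all genes called higher there: the clotting factors F10 (5.83) and F7 (3.30) and Lcn2 (0.52), and 2 fell, Igfbp2 (-2.17) and Igf1 (-1.16). Of 16 genes of zinc transport and metal response, 0 of 15 tested were called in liver, where the zinc importer Slc39a14 gave 0.84 (adjusted p = 0.401), and 3 of 14 rose in tumor (Slc30a7, Slc39a4 and Nfe2l2), again near that background. Of 18 receptors and partners of serum amyloid A, CD14 and LBP, 0 of 16 tested were called in liver, where Tlr2 gave 1.66 (adjusted p = 0.13). In tumor 6 of 15 rose and 3 fell. Over all genes there, 15.8% were called higher and 13.1% lower, given for reference. Fpr2, a receptor that binds serum amyloid A, rose by 5.99, Tlr2 by 1.89 and the adaptor Myd88 by 0.81. Tlr4, the lipopolysaccharide receptor, rose by 0.61, while Scarb1 and Stra6 gave -0.59 and -1.55. For comparison with another cytokine response, 9 of 10 interferon-gamma response genes rose in liver and 10 of 10 in tumor. Their median log2 fold changes were 3.66 and 6.04. Over all genes tested, 0.513% were called higher in liver and 15.8% in tumor.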

How the data were processed

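RNA of 12 libraries was analysed, 3 each of liver and tumor from mice given vehicle or the antibody; groups and replicate numbers come from the titles, and the 3 mice per treatment from the series' design. The authors deposited whole-number counts for 52636 Ensembl genes; GSNAP, limma and GRCm38 are named per the submitters' processing notes, while read counter, strand and annotation were not given in the sources used here; overlapping, antisense and near-identical genes are therefore uncertain. FPKM values were not used. Symbols, positions and exonic lengths (the union of exons, for TPM) came from GENCODE M21 on GRCm38, which matched 52489 genes; the other 147 took 0.00111% to 0.00643% of a library.

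The robust quasi-likelihood F test of edgeR 4.0.16 (R 4.3.3) was run on TMM-scaled counts, after filterByExpr at 10 counts and a total of 15, within liver, within tumor and, for the interaction and the tissue difference, over 12 libraries with 4 group means. Adjustment followed Benjamini and Hochberg over every gene tested, at a threshold of 0.05. SE is the log2 fold change over the square root of F. Alternatives were other scalings, no filter, DESeq2 1.42.0, limma-voom 3.58.1, a replicate block, 12 libraries in one fit for the effect within a tissue, and libraries left out; scaling by library totals alone was added after the scaling factors were seen. Intervals of count ratios are exact (95%) and cover counting error only. The fit was tested on simulated data with 200 changed genes. No 2 libraries of a group agreed within sampling noise (chi-square per degree of freedom 12.5 to 226 over 12 pairs). Motifs were searched on both strands and windows aligned with Biopython 1.88.

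Every member is accounted for; of each other list, up to 5 genes with the smallest p are named, and always Il6, Stat3, Socs3, Hamp and the Serpina1 genes. Outside this rule, Lcn2 in liver, Arg1, Hal, Ltf and the other marker genes beyond 3 a list were named after their values were seen. The members and lists were chosen with earlier results of these data known.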

Additional observations from a re-analysis of the deposited data

Results flagged for a closer look

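The antibody effect of 3 members differed between tumor and liver by the interaction test (edgeR, adjusted over all genes). The difference of log2 fold changes, tumor minus liver, was 2.87 for Cd14 (adjusted p = 0.000698), which had 2.49 in tumor and -0.43 in liver. It was 4.62 for Orm1 (adjusted p = 0.0487), with 5.02 in tumor and 0.33 in liver. For Lbp it was -1.53 (adjusted p = 0.0297), with -0.32 in tumor and 1.16 in liver, and neither of these separate effects passed its own test. Over the alternatives the adjusted p ranged up to 0.00343 for Cd14, to 0.104 for Lbp and to 0.179 for Orm1.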

How the results depend on the processing

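In liver the count of genes called, 73, was 352 with DESeq2, 145 without the count filter, 323 with 12 libraries in one fit and 829 without both liver vehicle 2 and liver TDB 3; leaving out 1 library gave 14 (liver vehicle 2) to 163 (liver TDB 3), with 17, 18 and 24 without liver vehicle 3, liver vehicle 1 and liver TDB 2. Members called higher there, 0, became 5 with DESeq2, 1 without the filter, 2 with 12 libraries in one fit, 11 without both libraries, and 0 to 1 with 1 library left out. In tumor the 4456 genes called became 1695 with 12 libraries in one fit and 2942 (tumor TDB 2) to 4860 with 1 library left out; the 8 members called higher became 5 with 12 libraries and 6 to 9, and the 0 members called lower became 2 with DESeq2, 1 with upper quartile factors, 1 with library totals alone, 1 without the filter, and 0 to 1. For the difference between tissues, 412 genes became 897 with DESeq2, 2153 without both libraries and 241 (tumor TDB 2) to 696 (liver TDB 3) with 1 library left out, and 261, 264 and 270 without tumor TDB 1, tumor vehicle 2 and liver vehicle 1; the 2 members called higher became 1 with limma-voom, 1 without the filter, and 1 to 2; the 1 called lower became 2 with DESeq2, 3 without both libraries, and 0 to 2. The cause of these shifts was not tested. Library totals alone moved the median of all genes in liver from 0.04 to 0.15 and in tumor from -0.02 to -0.15, and the split of tumor calls from 2437 higher and 2019 lower to 1856 and 3994; upper quartile factors gave 2075 and 2991.

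With the replicate number as a block, liver gave 350 genes called with 5 members higher, and the difference between tissues 258 genes with 0 members lower; in tumor the block gave 4622 genes with 7 members higher, as Saa3 lost its call (adjusted p = 0.0689); Saa1 and Saa2 in liver turned to 1.20 and 1.64. Deviations of same-numbered libraries correlated at -0.05 to 0.41 in liver, at 0.01 to 0.25 in tumor and at -0.03 to 0.09 between tissues, not all over 0.1, so the numbers were not taken as pairs.

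Among the members tested within the tissues concerned, the log2 fold changes that reversed were, in liver, Saa1 (1.13 with limma-voom, 4.31 without both libraries, -2.44 to 3.89 with 1 left out), Saa2 (1.56, 5.54, -2.95 to 5.08), Ambp (0.000566 with library totals alone, 0.36 without both, -0.24 to 0.17), Apcs (-0.0103 with 12 libraries, -0.42 to 0.67), Crp (-0.0086 to 0.18) and Orm1 (-0.27 to 1.12). In tumor they were Mt1 (-0.0193 with upper quartile factors, -0.0761 with library totals, -0.0326 with 12 libraries, -0.20 to 0.31), Fgg (-0.98 to 0.51) and Itih2 (-1.05 to 0.12). For the difference between tissues they were Ahsg (0.0177 with median-of-ratios factors, 0.0183 with DESeq2, -0.34 to 0.31 with 1 left out), Alb (0.30 with limma-voom), Itih2 (0.21 without both, -0.92 to 0.25 with 1 left out), Saa1 (-1.10, -0.75 to 5.54 with 1 left out), Saa2 (-2.32, -1.93 to 6.07 with 1 left out) and Saa3 (-0.18 without both). Of the 13 members not tested in tumor, 6 also took both signs in that difference over the alternatives: Ambp (-1.92 to 1.16), Crp (-3.17 to 1.39), Fga (-2.49 to 0.34), Fgl1 (-1.59 to 0.17), Rbp4 (-1.35 to 0.17) and Apcs (-2.53 to 0.0059). Between vehicle tissues Trf gave 0.0939 with library totals alone.

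The 3 mice a group limit each test, and 13 of the 33 members had too few counts in tumor for a test at this depth.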
